A study of Homo sapiens with 2 samples.

Results

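Chromosome 3 carries many genes with known roles in cancer along both of its arms, and 54 of them are described here, of 1054 chromosome 3 genes and 19607 genes in all. They were chosen by their position and their known roles after the level of chromosome 3 in this same comparison had been seen, so their values are a description and no test of that level. The question was which of these genes departed from the shift of their chromosome. The cells were CWR22rv1, a line of human prostate cancer that expresses the androgen receptor, and RNA was sequenced from 1 library of cells with Akt1 and Akt2 knocked out by CRISPR/Cas9 (Akt1/2 DKO) and from 1 library of wild type control cells. Knockout lines of the study were grown from single cells, and the labels do not say which line was sequenced. Both libraries hold cultured cells, with no treatment or age given. With 1 library per condition there is no spread between replicates: every interval below is a 95% exact interval that covers counting error only, and no p-value is given. A fold is the level in Akt1/2 DKO over that in control, after scaling for library size.

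The short arm of chromosome 3 is lost in many carcinomas, and it carries VHL, PBRM1, BAP1, SETD2 and the tumour suppressor candidates of band p21. The end of the long arm is often gained, and it carries PIK3CA, MECOM, SKIL and PRKCI. Akt kinases act below phosphoinositide 3-kinase (PI3K), phosphorylate GSK3B, and keep the forkhead FOXO factors out of the nucleus, so the list also holds parts of the pathway that Akt belongs to.

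Totals were 9970820 reads in control and 10718650 reads in Akt1/2 DKO. The floor of 3 reads was worth 0.301 CPM (reads scaled to a common library total) in control and 0.28 CPM in Akt1/2 DKO. AKT1 fell from 2645 to 591 reads, a log2 fold change of -2.31 (-2.44 to -2.18), and AKT2 from 2362 to 667 reads, a log2 fold change of -1.97 (-2.10 to -1.85). All 8 prostate luminal markers lay over the floor in both libraries. Of 3 endothelial, 4 blood cell and 3 basal epithelial markers, 0 did, and of 6 fibroblast markers 3 did, with 140 reads in control and 156 in Akt1/2 DKO over the whole list. In bulk RNA, fewer cells of a type and less RNA per cell cannot be told apart.

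Genes of chromosome 3 were lower in Akt1/2 DKO as a body. Over the 666 genes with at least 50 reads, the median log2 fold change was -0.53, which is 1.45-fold lower, and 579 were lower and 87 higher. The short arm (333 genes, median -0.51) and the long arm (333 genes, median -0.54) lay close together, and running windows of 50 genes had medians between -0.74 and -0.35. Medians of the other chromosomes ran from -0.20 to 0.12. The width of the chromosome 3 distribution, as the interquartile range on the log2 scale, was 0.573, within the range of 0.460 to 0.628 of the other chromosomes. Leaving out the 54 genes left the chromosome 3 median at -0.53.

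**Figure D1:**
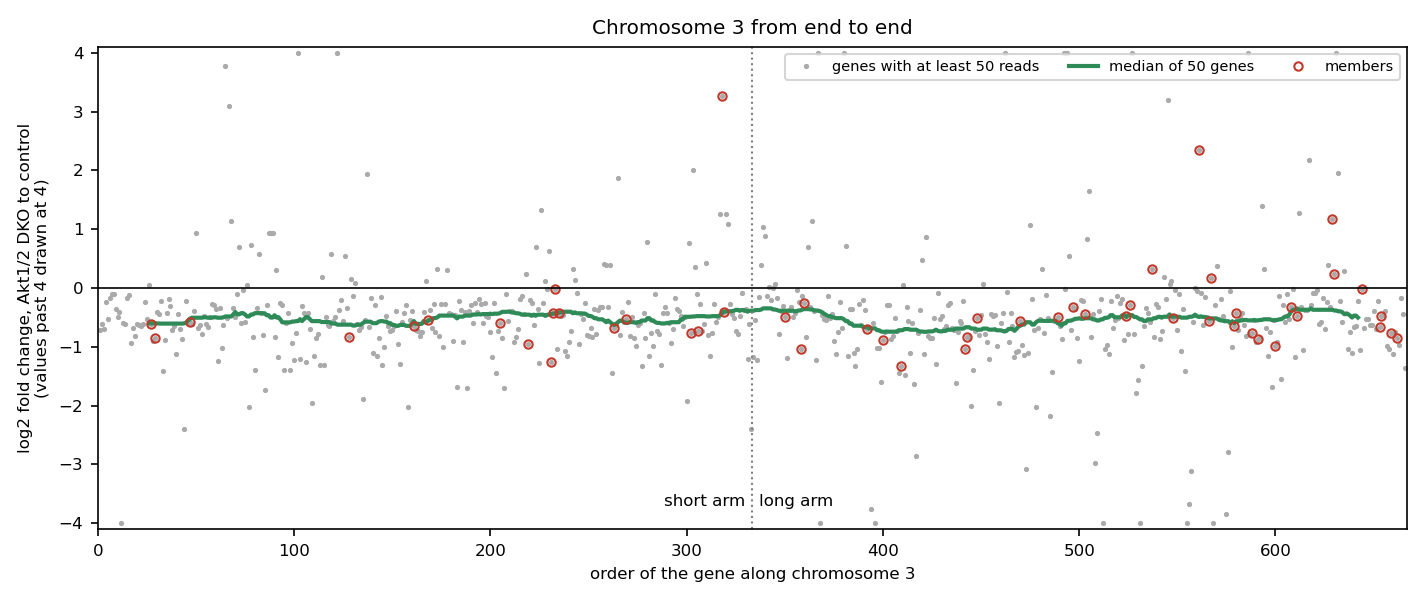
Log2 fold change of Akt1/2 DKO to control (vertical axis) for the 666 chromosome 3 genes with at least 50 reads (grey points), in their order along the chromosome (horizontal axis). The green line is the median of 50 neighbouring genes, which stays between -0.74 and -0.35 from end to end, and the red circles are the members, most of which lie near it.

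Most of the 54 genes lay near that level, though not all. With both libraries added, 52 of the 54 genes reached 10 reads. The other 2 were TNFSF10, the death ligand TRAIL, with 2 reads in control and 0 in Akt1/2 DKO, and TP63, the p53 family factor of basal epithelium, with 0 reads in each library. Of the 52 genes, 46 were lower in Akt1/2 DKO and 6 higher, with RASSF1 and TFRC, both near 0, turning to the higher side under total counts, upper-quartile scaling and FPKM. Their median log2 fold change was -0.55, against 0.01 over all 13318 genes that reached 10 reads. The 18 genes of the short arm had a median of -0.60 and the 34 of the long arm -0.50. At least 1.5-fold lower were 23 of 52 (44.2%), beside 15.0% of all genes and 46.7% of the chromosome 3 genes, so the share lay near that of the chromosome. At least 1.5-fold higher were 3 of 52 (5.77%), MITF, MECOM and BCL6, beside 15.9% of all genes and 8.75% of the chromosome 3 genes. The counting interval lay wholly below 0 for 42 genes and wholly above 0 for 5, and it held 0 for RASSF1, CBLB, RASA2, SKIL and TFRC. No share over all genes is set beside these interval counts. They depend on depth as well as fold, and 33 of the 52 genes had 1000 or more reads.

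A gene was counted as departing from its chromosome when its fold differed from the chromosome 3 median by at least 1.5-fold and its interval lay wholly on that side. Within 1.5-fold of the median lay 44 of 52 genes (84.6%), and 31 (59.6%) lay within 0.25 on the log2 scale. The quartiles of the 52 genes were -0.76 and -0.42. For chromosome 3 genes they were -0.82 and -0.25 with at least 50 reads, and -0.78 and -0.37 with 1000 or more. By counting error alone, the intervals of 27 of the 52 genes excluded the chromosome 3 median, 10 lying above it and 17 below. These interval counts depend on depth as well as fold. No share over chromosome 3 genes is set beside them, so they are no result about the members. Above the chromosome were 6 genes (11.5%), MITF, MECOM, BCL6, TIPARP, LPP and SKIL, beside 13.3% of chromosome 3 genes and 13.6% of the genes of other chromosomes set against their own chromosome's median. Below it were 2 genes (3.85%), HYAL2 and DTX3L, beside 14.3% of chromosome 3 genes and 11.6% of genes elsewhere. The share above was thus near its background. The share below rests on 2 genes and its difference from the background was not tested. It was 4 genes with the authors' FPKM (with DCUN1D1 and FHIT added), 3 against the 50 or the 20 nearest genes, and 0 at a 2-fold limit. Departures were more frequent among genes with few reads. Of chromosome 3 genes with fewer than 200 reads 52.0% departed, as did 2 of 4 members. With at least 200 but fewer than 1000 reads it was 29.9% of chromosome 3 genes and 4 of 15 members, and with 1000 or more it was 11.6% and 2 of 33 members. Those shares pool both directions. Above the chromosome alone lay 29.05% of chromosome 3 genes and 2 of 4 members with fewer than 200 reads. In the next class it was 14.8% of chromosome 3 genes and 4 of 15 members. None of the 33 members with 1000 or more reads lay above the chromosome, where 2.89% of chromosome 3 genes of that depth did.

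**Figure D2:**
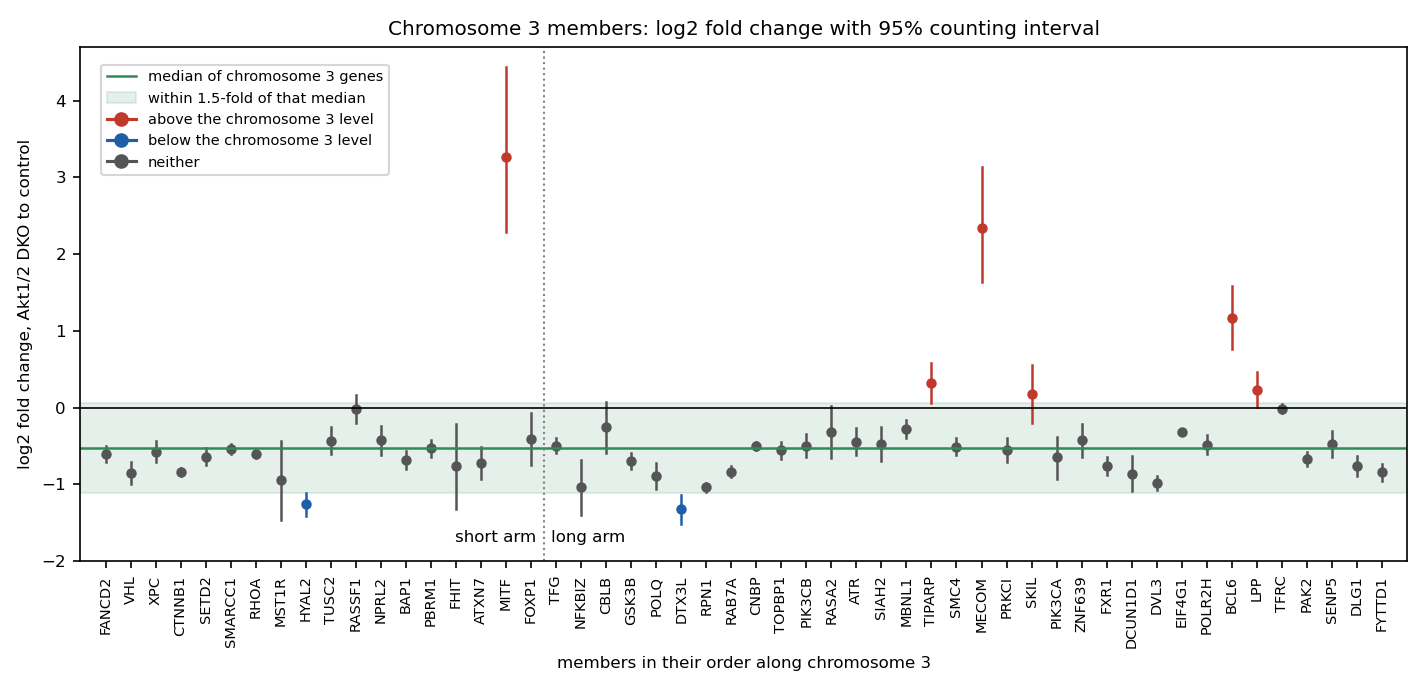
Log2 fold change of Akt1/2 DKO to control (vertical axis) of the 52 members with at least 10 reads, in their order along chromosome 3, with 95% counting intervals as bars. The green line is the chromosome 3 median of -0.53 and the band is 1.5-fold around it: 44 points lie in the band, 6 in red lie above it and 2 in blue below.

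Of the 6 genes above the chromosome, 5 were grouped as regulators of transcription. TIPARP, which encodes a mono-ADP-ribosyltransferase, was counted among these 5. Among the 9 transcription regulators of the list, 8 had enough reads, 3 of those were lower in Akt1/2 DKO, and their median log2 fold change was 0.25, the only group median above 0 among the 8 groups described here. All 8 had few reads, from 105 (MITF) to 706 (ZNF639) with both libraries added, while 33 of the 52 members had 1000 or more. On chromosome 3, genes above the median were more frequent among those with few reads, as given above. Whether the group median reflects role or depth was not tested. The list was composed with values known, so neither share nor median is evidence about transcription regulators in general.

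Upstream sequences are shown for all 6 genes above the chromosome, with the letters that FOXO factors are known to bind, since Akt restrains those factors. Each line gives the 250 bases before a transcription start listed by RefSeq for GRCh38.p14, 5′ to 3′ on the strand of the gene. Capitals mark GTAAACA or its reverse complement TGTTTAC. The window lies at chr3:69739214-69739463 on the plus strand for MITF, at chr3:156674340-156674589 on the plus strand for TIPARP and at chr3:169147472-169147721 on the minus strand for MECOM. It lies at chr3:170357465-170357714 on the plus strand for SKIL, at chr3:187745469-187745718 on the minus strand for BCL6, and at chr3:188212462-188212711 on the plus strand for LPP.
MITF: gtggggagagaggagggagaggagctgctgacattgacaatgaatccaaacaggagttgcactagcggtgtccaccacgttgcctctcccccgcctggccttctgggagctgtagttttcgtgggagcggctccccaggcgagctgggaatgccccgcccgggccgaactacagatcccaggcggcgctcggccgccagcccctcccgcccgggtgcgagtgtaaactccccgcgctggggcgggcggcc
TIPARP: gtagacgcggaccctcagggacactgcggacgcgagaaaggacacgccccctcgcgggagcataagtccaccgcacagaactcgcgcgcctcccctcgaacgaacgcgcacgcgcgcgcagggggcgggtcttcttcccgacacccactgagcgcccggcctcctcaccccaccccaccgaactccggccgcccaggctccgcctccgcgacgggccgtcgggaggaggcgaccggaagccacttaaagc
MECOM: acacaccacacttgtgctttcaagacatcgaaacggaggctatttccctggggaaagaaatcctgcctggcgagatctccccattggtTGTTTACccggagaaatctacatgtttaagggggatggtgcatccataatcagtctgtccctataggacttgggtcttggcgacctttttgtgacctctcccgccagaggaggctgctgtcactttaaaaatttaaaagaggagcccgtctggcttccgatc
SKIL: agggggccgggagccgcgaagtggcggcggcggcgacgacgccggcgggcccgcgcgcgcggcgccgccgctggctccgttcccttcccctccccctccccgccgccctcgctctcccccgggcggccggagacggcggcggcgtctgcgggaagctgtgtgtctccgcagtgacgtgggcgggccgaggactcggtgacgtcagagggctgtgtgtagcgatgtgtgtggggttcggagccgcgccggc
BCL6: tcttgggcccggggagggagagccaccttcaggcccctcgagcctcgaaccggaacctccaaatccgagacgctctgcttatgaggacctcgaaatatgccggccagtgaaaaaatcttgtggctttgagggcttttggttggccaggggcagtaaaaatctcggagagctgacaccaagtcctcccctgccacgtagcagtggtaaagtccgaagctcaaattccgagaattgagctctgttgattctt
LPP: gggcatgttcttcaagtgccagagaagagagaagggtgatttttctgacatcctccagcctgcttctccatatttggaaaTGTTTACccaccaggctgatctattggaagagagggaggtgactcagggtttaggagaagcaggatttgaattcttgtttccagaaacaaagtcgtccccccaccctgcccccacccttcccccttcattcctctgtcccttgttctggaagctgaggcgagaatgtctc

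The 7 letters were in 1 of 3 listed windows of MECOM, in 1 of 7 of LPP, in 0 of 3 each of MITF and TIPARP, in 0 of 2 of BCL6 and in 0 of 1 of SKIL. The windows shown for MECOM and LPP were selected because they hold the letters, and those of the other 4 genes are the ones farthest upstream. Over the 49 members with a listed start, 5 of 96 windows (5.21%) held the letters, those of FOXP1, LPP, MBNL1, MECOM and PIK3CA, beside 1046 of 35116 windows of all genes (2.98%). Of these 5 genes, 2 were above the chromosome and 3 did not depart from it. A match is a description of letters, and binding was not measured.

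MITF (chromosome 3, 69739435 to 69968337, GRCh38), the basic helix-loop-helix factor of melanocytes, had 9 reads in control and 96 in Akt1/2 DKO, a 9.62-fold higher level (4.86 to 21.7). It lay 13.9-fold above the chromosome 3 median. Its FPKM, in which the authors scaled reads for transcript length and library size, was 0.68 in control and 3.31 in Akt1/2 DKO, the lowest control level of the 52 genes on that scale. That is a log2 change of 2.28, smaller than the 3.27 from reads, and with at least 10 reads required in each library MITF was left out. MECOM (169083499 to 169663618), which encodes the zinc finger factor EVI1, had 19 and 107 reads, a 5.08-fold higher level (3.10 to 8.77), with an FPKM of 0.69 and 2.95. BCL6 (187721377 to 187745727), a zinc finger repressor known from germinal centre B cells, had 71 and 177 reads, a 2.25-fold higher level and a log2 fold change of 1.17 (0.76 to 1.59), with an FPKM of 2.06 and 5.55. The 3 genes with the largest rises were thus also the 3 with the lowest FPKM in control.

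The other 3 genes above the chromosome differed from control by less than 1.5-fold and were high only against their chromosome. TIPARP, a mono-ADP-ribosyltransferase that acts on the aryl hydrocarbon receptor, had 214 and 296 reads, a log2 fold change of 0.32 (0.06 to 0.58), 1.80-fold above the chromosome 3 median. LPP, a LIM protein of focal adhesions, had 279 and 364 reads, a log2 fold change of 0.23 (0.01 to 0.47), 1.70-fold above it, and it no longer departed against the 20 nearest genes. SKIL encodes SnoN, a repressor of SMAD signalling. It had 107 and 134 reads and a log2 fold change of 0.18 (-0.20 to 0.56), 1.63-fold above the chromosome and not distinct from control by counting error. Just inside the limit, at 1.43-fold above the median, lay TFRC and RASSF1.

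HYAL2 and DTX3L were the genes below the chromosome. HYAL2, a hyaluronidase anchored at the cell surface, had 1160 reads in control and 536 in Akt1/2 DKO, 2.40-fold lower (2.16 to 2.66) and 1.66-fold below the chromosome 3 median. In the annotation its exons share 509 bases with TUSC2 on the same strand, 11.2% of the exon bases of HYAL2, so reads there could be counted for either gene, and TUSC2 had a log2 fold change of -0.43. DTX3L, a ubiquitin ligase that pairs with PARP9, had 799 and 353 reads, 2.51-fold lower (2.21 to 2.85) and 1.74-fold below the median. Its neighbourhood was low as well, with a median of -0.70 over the 50 nearest genes, and against the 20 nearest genes it no longer departed. PARP9 itself, which shares 217 exon bases with DTX3L on the opposite strand and was looked up after the values of DTX3L were seen, had 814 and 332 reads, a log2 fold change of -1.44 (-1.63 to -1.26). Just inside the limit, at 1.42-fold below the median, lay RPN1 and NFKBIZ.

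The genes beside the departing members differed in direction. The nearest gene with at least 50 reads on each side, overlapping genes left out, was lower than control in 10 of 16 cases. The median log2 fold change of the 16 was -0.06, beside 579 of 666 lower and a median of -0.53 over chromosome 3. BCL6 and LPP, themselves selected as above the chromosome, are among the 16, so these values are a description only. Distances ran from 2.4 kb (PARP15) to 1415 kb (CLDN1). Beside MITF, FRMD4B had 15 and 40 reads (log2 fold change 1.27), while FOXP1 on the other side was at -0.41. Beside MECOM, GOLIM4 and MYNN were at -0.05 and -0.08. On the far side of HYAL2 from RASSF1, HYAL1 had 62 and 107 reads (0.64), the opposite direction to HYAL2. SKIL lay between PRKCI at -0.55 and CLDN11, a claudin of tight junctions, with 87 reads in control and 5 in Akt1/2 DKO (-4.27). BCL6 and LPP are each other's neighbours and were both above the chromosome. Beyond them lay RPL39L at -0.32 and CLDN1, another claudin, with 0 reads in control and 62 in Akt1/2 DKO. TIPARP lay between SSR3 at -0.58 and CCNL1 at -0.84, and DTX3L between KPNA1 at -0.74 and PARP15 at 0.06.

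**Figure D3:**
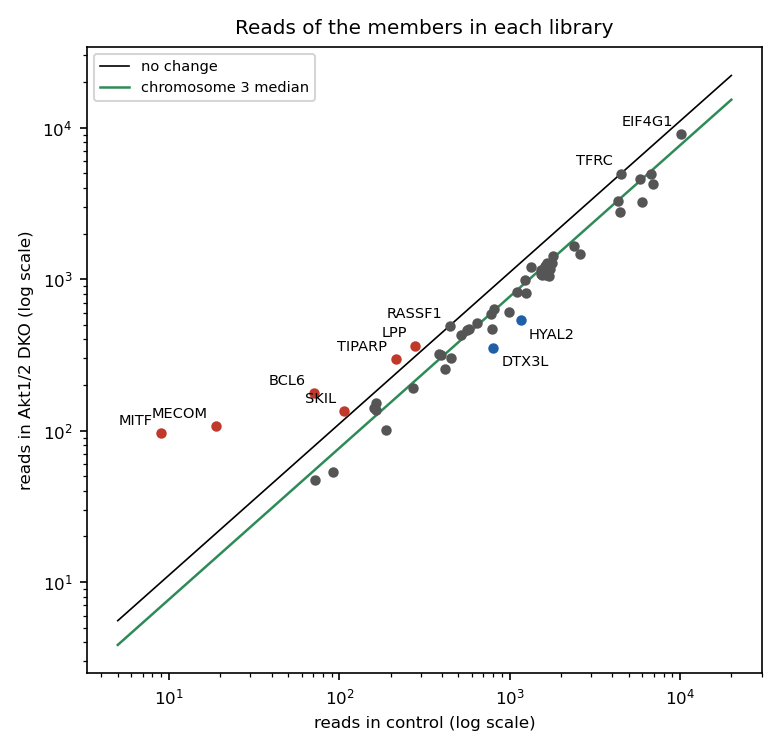
Reads of each of the 52 members in control (horizontal axis) and in Akt1/2 DKO (vertical axis), both on log scales. The black line marks no change after scaling and the green line the chromosome 3 median: most points follow the green line, MITF, MECOM, BCL6, TIPARP, LPP and SKIL (red) lie above it at fewer than 400 reads in each library, and HYAL2 and DTX3L (blue) lie below it.

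The chromatin and oxygen-sensing genes of the short arm were lower in Akt1/2 DKO in 6 of 6 cases, with a median log2 fold change of -0.66, and 4 were at least 1.5-fold lower. VHL, which binds hypoxia-inducible factors for ubiquitination, had 993 and 609 reads, a log2 fold change of -0.85. BAP1, a deubiquitinase of histone H2A, had 1537 and 1061 reads (-0.68, -0.80 to -0.57). SETD2, which trimethylates histone H3 at lysine 36, had 1519 and 1081 reads (-0.64), and ATXN7, of the deubiquitinase module of SAGA, 451 and 303 reads (-0.72). The SWI/SNF subunits SMARCC1, with 4299 and 3278 reads (-0.54), and PBRM1, with 1603 and 1230 reads (-0.53), lay almost at the chromosome 3 median. None of the 6 departed from it.

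The 3p21 genes and their neighbours on the short arm had log2 fold changes between -1.26 (HYAL2) and -0.02. RASSF1, a scaffold of the Hippo kinases, had 448 reads in control and 490 in Akt1/2 DKO, a log2 fold change of -0.02 (-0.21 to 0.17), so its level was not distinct from control. It lies within the same cluster as TUSC2, with 562 and 462 reads (-0.43), and NPRL2, a subunit of the GATOR1 complex that restrains mTORC1, with 519 and 428 reads (-0.43). An antisense gene, RASSF1-AS1, overlaps 659 exon bases of RASSF1, and whether counting used the strand is not given in the sources used here. RHOA, a GTPase of the actin cytoskeleton and among the most abundant members at an FPKM of 335 in control, had 6747 and 4928 reads (-0.60). MST1R, the receptor kinase RON, had 92 and 53 reads (-0.94, -1.46 to -0.44). FHIT, a hydrolase whose gene spans a fragile site, had 72 and 47 reads (-0.76, -1.33 to -0.21), but its FPKM fell from 22.3 to 4.29, a log2 change of -2.38 that the reads do not show.

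Genes of DNA repair and chromosome structure were all lower, 6 of 6, with log2 fold changes in a narrow range from -0.89 to -0.44. POLQ, the polymerase of theta-mediated end joining, was the lowest with 785 and 469 reads. FANCD2, which is monoubiquitinated at crosslinks, had 1760 and 1282 reads (-0.61), and XPC, the damage sensor of nucleotide excision repair, 1100 and 819 (-0.57). The replication checkpoint kinase ATR had 575 and 469 reads (-0.44) and its activator TOPBP1 1525 and 1151 (-0.55). The condensin subunit SMC4 had 1651 and 1287 reads (-0.51). These 6 genes lie on both arms and none departed from the chromosome.

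All 11 kinases and signalling genes were lower, 6 of them at least 1.5-fold, with a median log2 fold change of -0.65. On chromosome 3, 579 of 666 genes with at least 50 reads were lower. At least 1.5-fold lower were 46.7% of its genes with at least 10 reads. None of the 11 departed from the chromosome 3 median. CTNNB1, which encodes beta-catenin, had 6885 and 4266 reads (-0.84, -0.89 to -0.78). GSK3B, a kinase that marks beta-catenin for destruction and is itself an Akt substrate, had 1715 and 1172 reads (-0.70, -0.81 to -0.59), and DVL3, a relay of Wnt receptors, 2596 and 1460 reads (-0.98, -1.07 to -0.89). An effector, a kinase that restrains it and a relay of the same pathway were lower together. PIK3CA and PIK3CB encode the catalytic subunits p110 alpha and p110 beta of PI3K. PIK3CA had 272 and 192 reads (-0.65, -0.93 to -0.38), but its FPKM was 2.98 and 2.83, a log2 change of -0.07. Its exons share 3403 bases, 35.8% of them, with KCNMB3 on the opposite strand, and its deposited count in control was not a whole number. PIK3CB had 810 and 637 reads (-0.50, -0.65 to -0.34).

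Among the other signalling genes, the polarity scaffold DLG1 had 1242 and 813 reads (-0.76), the p21-activated kinase PAK2 2370 and 1656 (-0.67) and the atypical protein kinase PRKCI 779 and 588 (-0.55). TFG, an organizer of export from the endoplasmic reticulum, had 1798 and 1414 reads (-0.50). CBLB, a ubiquitin ligase of receptor tyrosine kinases, with 164 and 152 reads (-0.26, -0.59 to 0.07), and RASA2, a Ras GTPase-activating protein, with 160 and 142 reads (-0.32, -0.66 to 0.01), were not distinct from control at this depth. Neither were they distinct from the chromosome 3 median, which both intervals hold.

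The other groups were lower too, with exceptions in membrane traffic. RPN1, a subunit of the oligosaccharyltransferase, had 5980 and 3222 reads (-1.04, -1.10 to -0.98), and RAB7A, a GTPase of late endosomes, 4444 and 2761 (-0.84). TFRC, the transferrin receptor, had 4515 and 4959 reads, a log2 fold change of -0.01 (-0.07 to 0.04), the closest to no change among the members and the highest of the 33 with 1000 or more reads. Of 4 ubiquitin and SUMO enzymes, 4 were lower: DTX3L, the NEDD8 ligase DCUN1D1 with 418 and 255 reads (-0.86), the ubiquitin ligase SIAH2 with 394 and 314 (-0.48) and the SUMO protease SENP5 with 646 and 516 (-0.47).

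RNA processing and translation genes were lower in 6 of 6 cases, from -0.84 to -0.28, and none of the 6 departed from the chromosome. EIF4G1, the scaffold of the cap-binding complex, was the member with most reads, 10155 in control and 9026 in Akt1/2 DKO, and a log2 fold change of -0.32 (-0.36 to -0.28), above the chromosome 3 median by counting error but within 1.5-fold of it. The splicing regulator MBNL1 had 1325 and 1208 reads (-0.28). The mRNA export adaptor FYTTD1, with 1688 and 1044 reads (-0.84), and FXR1, an RNA-binding paralog of FMR1, with 1637 and 1070 (-0.76), were the lowest. CNBP, a zinc finger protein that binds nucleic acids, with 5830 and 4561 reads (-0.50), and POLR2H, a subunit shared by the nuclear RNA polymerases, with 1236 and 980 (-0.48), lay near the chromosome 3 median. The 3 transcription regulators that were lower were NFKBIZ, a nuclear regulator of NF-kappaB with 187 and 101 reads (-1.04, -1.40 to -0.68), the zinc finger protein ZNF639 with 387 and 319 (-0.43) and the forkhead repressor FOXP1 with 164 and 137 (-0.41).

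Many members encode 1 part of a complex or pathway whose other parts lie on other chromosomes, and these were set beside them. In 14 complexes or pathways with 20 members, 20 of 20 members were lower than control and 20 of 20 lay below the median of their partners elsewhere. The median difference, member minus partners, was -0.67 on the log2 scale. The 123 partners on other chromosomes with at least 10 reads had a median log2 fold change of 0.02, 59 were below 0, 5 were at least 1.5-fold lower and 8 at least 1.5-fold higher. The 5 partners that lie on chromosome 3 were all below 0: ACTL6A (-0.48), SEC13 (-0.21), ATRIP (-0.28), EIF4A2 (-0.70) and STT3B (-0.30). The list of partners was written with the level of chromosome 3 known. None of the 6 members that were higher in Akt1/2 DKO is among the 20. The counts of 20 of 20 follow in part from that choice and are no test.

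**Figure D4:**
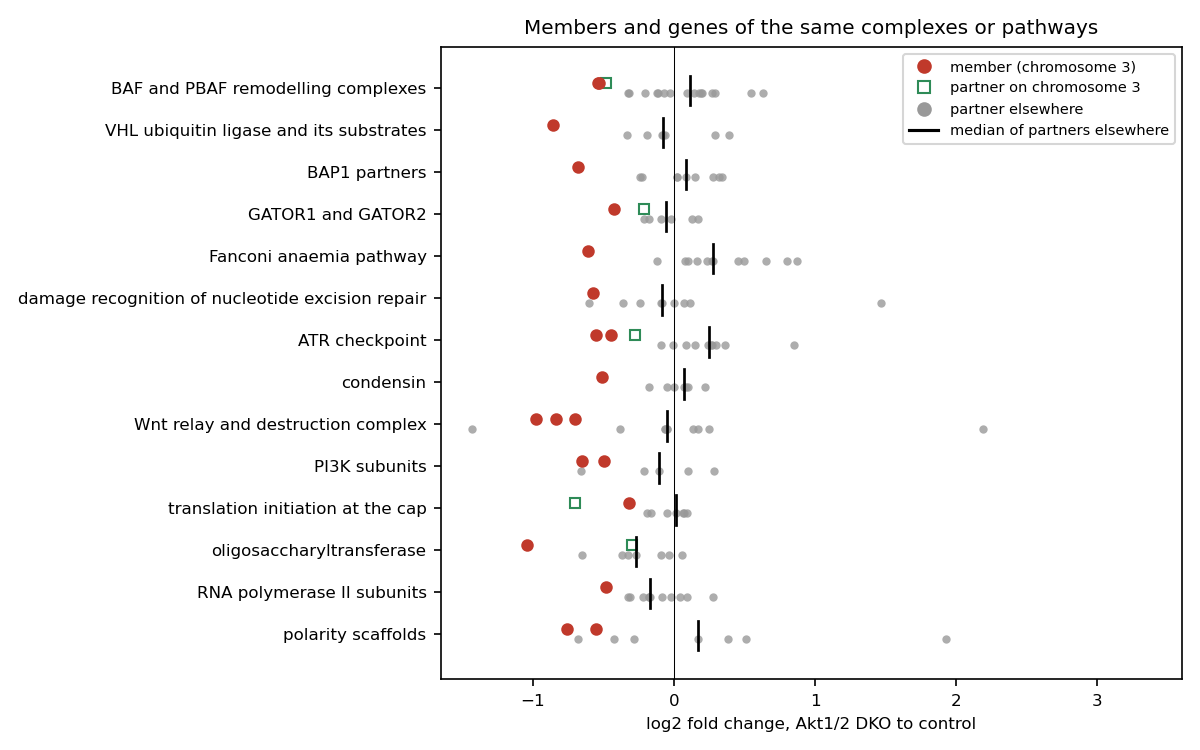
Log2 fold change of Akt1/2 DKO to control (horizontal axis) for 20 members (red), their 5 partners on chromosome 3 (green squares) and their 123 partners on other chromosomes (grey), by complex or pathway (rows), with the median of the partners elsewhere as a black bar. In each row every red point lies to the left of the black bar.

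The separation was complete in several complexes. All 16 partners of SMARCC1 and PBRM1 in the BAF and PBAF remodelling complexes had higher log2 fold changes than both members, with a median of 0.12, and BCL7C was the one past 1.5-fold (338 and 580 reads). All 9 partners of BAP1 were higher than BAP1, with a median of 0.08, and all 7 genes around VHL, its ligase subunits and the hypoxia-inducible factors, were higher than VHL, with a median of -0.08. Fanconi anaemia genes elsewhere had a median of 0.27, all 12 higher than FANCD2, and 3 were at least 1.5-fold higher: FANCB (41 and 83 reads), FANCF (277 and 534) and FANCL (158 and 275). The 10 checkpoint genes set beside ATR and TOPBP1 had a median of 0.25, with ETAA1, another activator of ATR, at 61 and 122 reads (0.85).

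In other complexes single partners fell as far as the member or moved widely. In the Wnt pathway 9 of 10 partners were higher than CTNNB1, GSK3B and DVL3. The exception was AXIN2, a scaffold of the destruction complex that beta-catenin itself induces, with 95 and 39 reads (-1.43, -2.01 to -0.88), and LEF1, a transcription factor that binds beta-catenin, had 33 and 167 reads (2.19, 1.64 to 2.78). Of 5 PI3K partners with enough reads, the regulatory subunit PIK3R1 (248 and 174 reads, -0.66) lay below both PIK3CA and PIK3CB. PIK3CD and PIK3CG, the other catalytic subunits, had 1 read or fewer in each library. RPN1 lay below 7 of 7 oligosaccharyltransferase partners, whose own median was -0.27, with RPN2 the lowest of them at 5450 and 3849 reads (-0.65). XPC lay below 8 of 9 partners, CETN2 being lower (409 and 298 reads, -0.61) and ERCC5 far higher (130 and 398 reads, 1.46). PRKCI lay below 6 of 7 and DLG1 below 7 of 7 polarity partners, among which PRKCZ was lower than control (356 and 246 reads, -0.68) and PARD6A higher (79 and 334 reads, 1.93). For SMC4, NPRL2, EIF4G1 and POLR2H, every partner on another chromosome was higher than the member.

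The pathway annotation deposited by the authors gave the same picture over a wider set, chosen after the values had been seen. In the pathways in cancer of KEGG, 22 genes of chromosome 3 had at least 10 reads and a median log2 fold change of -0.55, with 11 at least 1.5-fold lower and 4 higher. The 272 genes of that pathway on other chromosomes had a median of 0.02, with 43 at least 1.5-fold lower and 48 at least 1.5-fold higher. In the PI3K-Akt pathway the 9 genes of chromosome 3 included 3 members, GSK3B, PIK3CA and PIK3CB. The 9 genes had a median of -0.65 and 8 were below 0, with 6 at least 1.5-fold lower and 0 at least 1.5-fold higher. The 215 genes elsewhere had a median of 0.01 and 107 were below 0, with 41 at least 1.5-fold lower and 35 at least 1.5-fold higher.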

How the data were processed

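RNA sequencing covered 1 library each of Akt1/2 DKO and control CWR22rv1 cells. The deposited table holds an expected count of reads per gene and library, estimated by the authors and not normalized, and an FPKM value that they computed. The submitters' processing notes name fastp 0.20.0, TopHat, Cufflinks, edgeR and the build GRCh38.p10, without their roles. The counting tool and its use of strand are not given in the sources used here. The authors' own fold change, p-value and FDR columns were not used. In control 90.6% and in Akt1/2 DKO 90.8% of the counts were whole, and all were rounded to whole reads, which left 6 members (XPC, NPRL2, DTX3L, SMC4, PIK3CA and LPP) with values that had not been whole.

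A gene was kept when both libraries together gave it at least 10 reads (13318 genes). Akt1/2 DKO was scaled against control by a size ratio of 1.109 from TMM factors (edgeR 4.0.16, R 4.3.3). Folds used whole reads, with fewer than 3 reads set to 3, and Clopper-Pearson intervals (95%) of the share of reads in Akt1/2 DKO (scipy 1.17.1, Python 3.11.15). Reads are not independent molecules, so intervals cover counting error only. Chromosome medians used genes with at least 50 reads. Positions were those of the GENCODE annotation of GRCh38, found for 19571 of 19607 identifiers, and the arms were split at the centromere gap. Log2 fold change and departure are as defined in the results, at a threshold of 1.5-fold as the study used.

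The members and the lists of roles, partners and markers were chosen with earlier results of these data known. All 54 members are named, together with AKT1, AKT2, partners past 1.5-fold or set beside a member, and the nearest genes of departing members. The result of 1 partner gene is not reported here. PARP9 and the KEGG pathways were chosen after their values were seen. The steps were tested on simulated data. Alternatives were total counts, upper-quartile and DESeq2 1.42.0 scaling, TMM without chromosome 3, a threshold of 2-fold, the authors' FPKM, a prior count of 1, other minimum reads and other reference levels on chromosome 3.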

Additional observations from a re-analysis of the deposited data

How the results depend on the processing

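With 1 library per condition the depth limits each value only through its counting interval, and variation between cultures or clones cannot be told apart from the knockout. No paired analysis was possible because there was only 1 library of each genotype. A 2-fold threshold left 2391 changed genes of 4117, 4 members lower of 23, 3 members above the chromosome 3 median of 6 (BCL6, MECOM and MITF) and 0 below it of 2. The authors' FPKM put 4 members below the chromosome, DCUN1D1 (-1.23) and FHIT (-2.38) beside HYAL2 and DTX3L, and moved the median of the partners elsewhere from 0.02 to 0.10. The cause was not tested. Total counts gave a chromosome 3 median of -0.49 and upper-quartile scaling -0.48, with -0.49 for the long arm. The same 8 departing members were found under the other scalings, without a read filter, with at least 50 reads, with a prior count of 1, against the arm's median and against chromosome 3 without the members. At least 10 reads in each library left out MITF. Against the 50 nearest genes NFKBIZ was added, and against the 20 nearest MST1R, NFKBIZ and TFRC were added and DTX3L and LPP lost. Of 467 values of members under alternatives, 456 moved by less than their interval and 11 moved further, 9 of these with FPKM and 2 for EIF4G1. In 6 of the 467 the sign changed, for 2 members near 0, RASSF1 and TFRC, with total counts, upper-quartile scaling and FPKM.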
